A study of Sus scrofa with 50 samples.

Results

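Insulin signalling and glucose uptake were followed through 8 genes in tissues of Korean minipigs (Sus scrofa), of which there are an ET and an L type. The genes are SLC2A4 and SLC2A1 (the glucose transporters GLUT4 and GLUT1), TUSC5, IRS1 and IRS2, PIK3R1, AKT2 and TBC1D4. They were chosen by name: an assembled transcript belonged to a gene when its best Swiss-Prot protein match, at an E value of at most 1e-10, carried that gene's entry name. All 8 were found, with 22 transcripts between them, among 14413 genes defined in the same way.

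RNA was sequenced from backfat, brain, loin, lymph and tenderloin of 10 animals. The 5 of type ET are S0326, S0309, S0276, S0242 and S0235 in the labels. The 5 of type L are S0385, S0384, S0377, S0355 and S0349, and each animal gave 1 library per tissue. The sources used here do not spell out ET and L, and give no age, sex, treatment or feeding state. Values are TPM (a transcript's share of its library, per transcript length), so levels of different genes can be compared, while the read depth behind them is unknown.

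Marker genes were compared among libraries of the same tissue label, and 5 libraries unlike the others of their label were left out, which leaves 45. The backfat library of S0355 held 23749 TPM of the muscle creatine kinase CKM, against at most 97.9 in the other backfat libraries, and 3.33 TPM of the fat cell hormone ADIPOQ. The loin library of S0355 in turn held 1139 TPM of ADIPOQ and 0.638 TPM of CKM. The brain libraries of S0235 and S0355 held 30538 and 37999 TPM of the myelin gene MBP, against at most 80.1 in the others, and the lymph library of S0235 held 2156 TPM of the kidney gene UMOD. The 8 brain libraries kept held 805 to 40121 TPM of prolactin (PRL), a pituitary hormone, and 0.985 to 43.6 TPM of the astrocyte gene GFAP, so the name brain is used here only as the label gives it. In the 45 libraries 10170 to 13172 genes reached 1 TPM.

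Insulin binding to its receptor leads to phosphorylation of the adaptor proteins IRS1 and IRS2, which recruit phosphoinositide 3-kinase through its regulatory subunit, encoded by PIK3R1. The lipid signal activates the kinase AKT2, which phosphorylates the Rab GTPase-activating protein TBC1D4 and so releases vesicles carrying GLUT4 to the cell surface. GLUT4 is the insulin-responsive transporter of muscle and fat, GLUT1 supplies basal uptake in many tissues, and TUSC5 (also named TRARG1) is a protein of the GLUT4 vesicles of fat cells. Sites in the RefSeq annotation of Sscrofa11.1, which the submitters' processing notes also name, are chromosome 12, 52628746 to 52634965, for SLC2A4 and chromosome 6, 168535398 to 168561170, for SLC2A1. TUSC5 lies on chromosome 12 (46623712 to 46634115), IRS1 on chromosome 15 (128245846 to 128307321) and IRS2 on chromosome 11 (76626158 to 76654639). PIK3R1 lies on chromosome 16 (46434757 to 46523626), AKT2 on chromosome 6 (48555785 to 48620472) and TBC1D4 on chromosome 11 (47543808 to 47760928).

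The transcripts behind the genes differ in how much of the protein they cover. SLC2A4 has 3 transcripts, and those of 7014 and 2711 nt both match residues 1 to 509 of the protein, at up to 95.1% identity. The 2711-nt transcript holds 80.1% of SLC2A4 TPM in loin, 81.8% in tenderloin and 67.7% in backfat, while the 7014-nt transcript holds 74.1% in brain. Both SLC2A1 transcripts match the pig protein at 100% identity. TUSC5 has 1 transcript, of 4568 nt, which matches the mouse protein at 76.7% identity with an E value of 1.57e-44. All 3 IRS2 transcripts match the same residues, 494 to 983, so their TPM are sums over isoforms of 1 stretch. The AKT2 transcript of 3411 nt holds at least 88.7% of AKT2 TPM in every tissue. Of TBC1D4 TPM, 53.6% in backfat and up to 71.7% (in lymph) comes from a 3037-nt transcript that matches only residues 1221 to 1298.

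IRS1 needs the most care, because its TPM add up 2 unlike transcripts. One of 8885 nt matches residues 1 to 1242 at 92.2% identity. The other, of 1437 nt, matches residues 11 to 112 at 52.0% identity with an E value of 2.18e-23, and whether it comes from the IRS1 gene was not tested. This short match holds 75.7% of IRS1 TPM in brain and 85.2% in lymph, but 30.9% in backfat, 0.74% in tenderloin and 0.0518% in loin. IRS1 is therefore given below both as the sum and as the full-length transcript.

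SLC2A4, SLC2A1 and TUSC5 each had a distinct tissue profile, and members were called between the ET and L types only in backfat and in loin. In backfat, TUSC5, SLC2A4 and AKT2 were higher in ET, by 28.4-, 11.2- and 4.98-fold. In loin, IRS2 and AKT2 were lower in ET, by 3.32- and 1.49-fold, but the AKT2 call was lost after scaling to the median gene. None of the 7 members tested was called in tenderloin, brain or lymph. A member was called when its adjusted p lay below 0.05 (limma on log2(TPM + 1), two-sided, Benjamini-Hochberg over all genes tested in that tissue). All fold changes are on the log2(TPM + 1) scale, which understates the change of low genes. The 3 of 8 members called higher in backfat stand beside 7.53% of all 12110 genes called higher there and 1.04% called lower. The 2 of 7 called lower in loin stand beside 25.2% of 10571 genes called lower and 6.17% called higher, so most calls in loin had that direction. The share of members called lower in loin lies near the background. The background was 1.63% in tenderloin and 0.0% in brain and in lymph, where 1079 and 525 genes lay below an unadjusted 0.05.

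**Figure D1:**
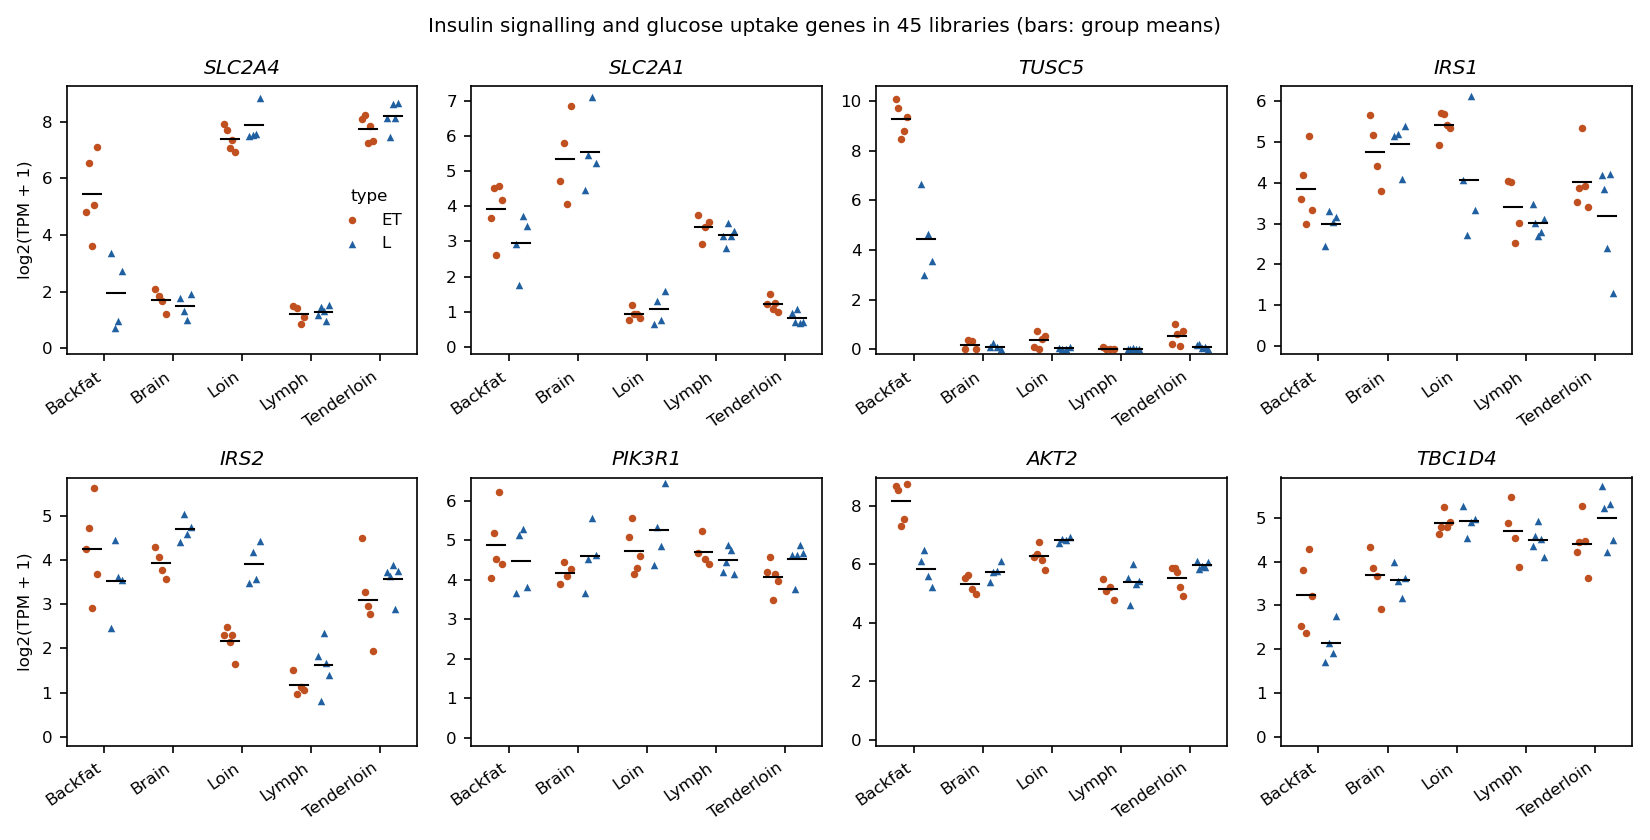
TPM of each of the 8 genes in the 45 libraries kept (points, ET and L apart, log-scaled axis) by tissue. SLC2A4 reaches 461 TPM in loin and 403 in tenderloin, TUSC5 reaches 1101 in backfat and at most 1.01 elsewhere, and SLC2A1 is highest in brain.

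SLC2A4 was highest in skeletal muscle. Its lowest, median and highest values were 152, 275.8 and 403 TPM in tenderloin (264 ± 88.8, mean ± SD, n = 10) and 121, 185 and 461 TPM in loin (209 ± 101, n = 9). In backfat they were 0.633, 11.4 and 136 TPM (35.1 ± 47.4, n = 9). Brain held 1.02 to 3.28 TPM and lymph 0.842 to 1.92 TPM. With the types pooled, the order was tenderloin and loin, then backfat, then brain and lymph. The place of backfat above brain and lymph was clear only in ET, where backfat held 11.4 to 136 TPM. In L, backfat held 0.633 to 9.33 TPM, brain 1.02 to 2.78 TPM and lymph 0.938 to 1.92 TPM, so these ranges overlapped. The L backfat libraries of S0377 (0.633 TPM) and S0384 (0.972 TPM) lay below every L brain library. Loin and tenderloin did not differ beyond their spread (log2 -0.35, 95% interval -0.98 to 0.28, adjusted p = 0.485 with limma). Averaged over the types, backfat lay 15.3-fold below loin (adjusted p = 2.87e-14) and brain 4.23-fold below backfat (adjusted p = 4.18e-07). Brain and lymph differed by a log2 of 0.34 (-0.33 to 1.01, adjusted p = 0.351). Tissue pairs have a high background. Of 13446 genes 23.2% were called between loin and tenderloin, 75.3% between backfat and loin, 75.4% between backfat and tenderloin, 72.4% between backfat and lymph and 78.9% between brain and backfat. The share was 80.8% for lymph and loin, 81.8% for lymph and tenderloin, 74.9% for brain and lymph, 86.2% for brain and loin and 87.8% for brain and tenderloin.

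In backfat SLC2A4 split by type. The ET libraries held 27.1 (S0235), 92.3 (S0242), 11.4 (S0276), 32.8 (S0309) and 136 TPM (S0326). The L libraries held 9.33 (S0349), 0.633 (S0377), 0.972 (S0384) and 5.6 TPM (S0385). The groups did not overlap, although the lowest ET library, S0276, was close to the highest L library, S0349. Separation of ET above L was seen for 11.9% of all backfat genes. The difference was 3.49 on the log2 scale (SE 0.74, 95% interval 1.87 to 5.10, adjusted p = 0.0188 with limma). Without S0384 it was 3.17 and no longer called (adjusted p = 0.0620), and with the left-out backfat library of S0355, which held 160 TPM, it was 2.41 (adjusted p = 0.248).

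SLC2A4 did not pass the test between types in muscle. In loin the ET libraries held 239, 210, 132, 162 and 121 TPM and the L libraries 180, 185, 189 and 461 TPM (log2 -0.47, -1.13 to 0.18, adjusted p = 0.244). The value of 461 came from S0385 and lay apart from the other L libraries. In tenderloin the values were 271, 301, 152, 230 and 157 TPM in ET and 282, 175, 393, 281 and 403 TPM in L (log2 -0.46, -1.04 to 0.12, adjusted p = 0.365). S0385 was again the highest library.

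SLC2A1 had close to the opposite profile. It was highest in brain, where its lowest, median and highest values were 15.6, 39.4 and 135 TPM (55.5 ± 44.6, n = 8). Backfat (12.2 ± 7.19 TPM, n = 9) and lymph (8.96 ± 2.06 TPM, n = 9) came next. Loin (1.04 ± 0.476 TPM, n = 9) and tenderloin (1.07 ± 0.399 TPM, n = 10) were lowest. Brain lay 4.05-fold above backfat (adjusted p = 1.23e-07), and lymph 4.90-fold above loin (adjusted p = 3.22e-09). The neighbours backfat and lymph (log2 0.14, -0.46 to 0.73) and loin and tenderloin (log2 -0.02, -0.59 to 0.56) did not differ beyond their spread. Across the 45 libraries, log2 levels of SLC2A1 and SLC2A4 had a Pearson r of -0.75. That value is a description over libraries that share tissues and animals.

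SLC2A1 passed the test between types in no tissue. In backfat the ET libraries held 11.6, 21.9, 5.17, 22.8 and 17.2 TPM and the L libraries 6.56, 2.43, 12.2 and 9.76 TPM (log2 0.95, -0.09 to 2.0, adjusted p = 0.232). In tenderloin, near 1 TPM, ET ranged from 1.0 to 1.87 and L from 0.599 to 1.11 (log2 0.39, 0.07 to 0.72, adjusted p = 0.174).

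The share of SLC2A4 in the summed TPM of the 2 transporters sets both against each other within a library. It was 99.2% to 99.7% in loin. In tenderloin, with SLC2A1 near 1 TPM, it was 99.3% to 99.5% in ET and 99.6% to 99.8% in L, without overlap. In lymph it was 7.95% to 22.5% and in brain 0.744% to 12.4%. In backfat it was 59.0% to 88.8% in ET and 7.39% to 58.7% in L, so the types did not overlap but met at their edges. SLC2A4 was thus the more abundant of the pair in all 5 ET backfat libraries. Among the L backfat libraries it was so only in S0349 (58.7%).

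TUSC5 was found almost entirely in backfat. Its lowest, median and highest values there were 6.94, 356 and 1101 TPM (393 ± 402, n = 9). The highest value elsewhere was 1.01 TPM in tenderloin, 0.681 in loin, 0.31 in brain and 0.0538 in lymph. Its means in loin, tenderloin, brain and lymph were 0.182, 0.285, 0.113 and 0.013 TPM, below the pseudocount of 1, and it passed the filter on low values only through backfat, so no test between tissues is given. The loin library of S0355 that was left out for its fat cell markers held 221 TPM, and the backfat library of that animal 0.622 TPM.

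TUSC5 also separated the types in backfat. The ET libraries held 1101 (S0235), 845 (S0242), 356 (S0276), 438 (S0309) and 656 TPM (S0326), and the L libraries 99.1 (S0349), 6.94 (S0377), 24.0 (S0384) and 10.8 TPM (S0385). The lowest ET library was above the highest L library, and L itself spanned a wide range. The log2 difference was 4.83 (SE 0.64, 3.43 to 6.22, adjusted p = 0.00373 with limma), and it was called without each animal in turn (4.34 to 5.56). TUSC5 was not tested between types elsewhere, since its mean was below 1 TPM.

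IRS1, summed over both transcripts, was 34.6 ± 21.4 TPM in loin (n = 9), 30.6 ± 12.9 in brain (n = 8), 14.1 ± 10.3 in tenderloin (n = 10), 11.9 ± 9.15 in backfat (n = 9) and 8.72 ± 3.98 in lymph (n = 9). Loin exceeded backfat (log2 for backfat minus loin -1.32, adjusted p = 0.00168), and for the sum tenderloin, backfat and lymph did not differ beyond their spread. The places of brain and lymph rest on the short match. The full-length transcript alone averaged 34.6 TPM in loin, 14.0 in tenderloin, 8.21 in backfat, 7.44 in brain and 1.29 in lymph. Brain against loin was 0.12 for the sum and -1.68 with full-length IRS1 only (adjusted p = 4.47e-05). With full-length IRS1 only, lymph lay below tenderloin (-2.44, adjusted p = 2.08e-08) and backfat above lymph (1.84, adjusted p = 1.19e-05). After scaling to the median gene the IRS1 sum was also lower in lymph (-1.25, adjusted p = 0.00211) and in backfat (-0.85, adjusted p = 0.0336) than in tenderloin.

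Between types, IRS1 was uneven among animals in muscle. In loin the ET libraries held 29.2, 51.4, 50.3, 41.7 and 39.4 TPM, and the L libraries 15.7 (S0349), 5.56 (S0377), 68.9 (S0384) and 9.14 TPM (S0385). All L libraries but S0384 were below the ET range. The log2 difference of 1.35 (0.19 to 2.51) did not pass (adjusted p = 0.0718), and without S0384 it was 2.04 (adjusted p = 0.00242). In tenderloin, ET held 10.6, 13.6, 39.4 (S0276), 14.0 and 9.51 TPM and L held 17.2, 13.4, 4.27, 17.4 and 1.45 TPM (log2 0.82, adjusted p = 0.442). S0377 and S0385 were the lowest L libraries in both muscles. In backfat the sum did not pass (log2 0.87, adjusted p = 0.204), with 6.98 to 34.4 TPM in ET and 4.49 to 8.82 in L. Full-length IRS1 there was 3.08 to 23.2 TPM in ET and 3.51 to 7.63 in L (log2 0.38, adjusted p = 0.641), and the short match 2.18 to 11.2 TPM in ET and 0.565 to 1.19 in L. In loin and tenderloin full-length IRS1 gave 1.35 and 0.81, and neither passed (adjusted p = 0.0670 and 0.444).

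**Figure D2:**
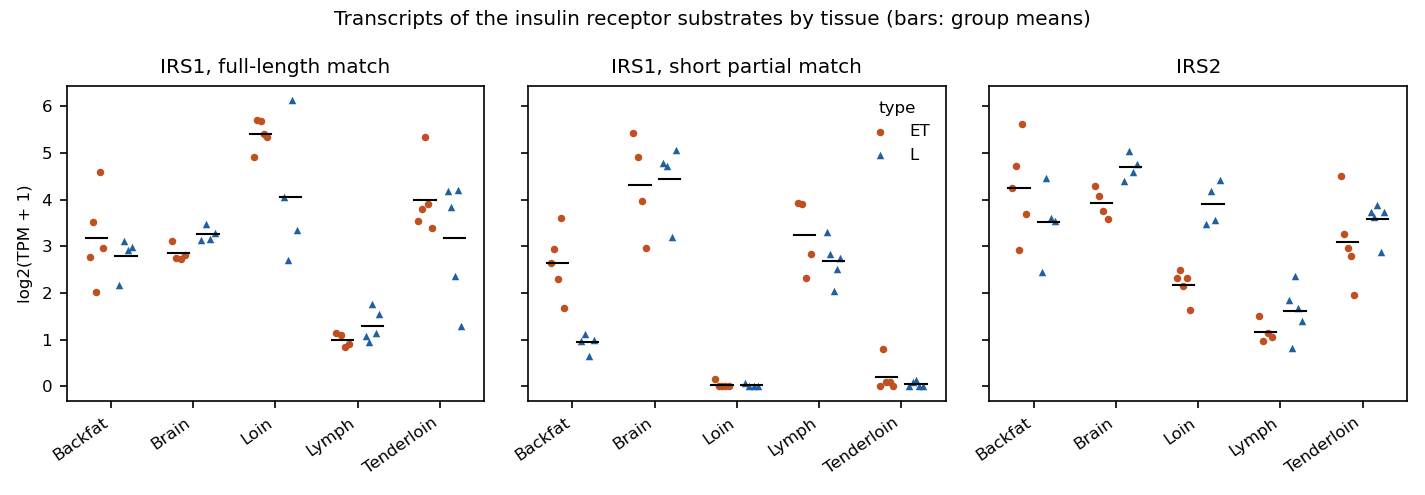
TPM of the full-length IRS1 transcript, the short IRS1 match and IRS2 by tissue and type in the 45 libraries kept. The short match is found mainly in brain and lymph, and IRS2 in loin is higher in all 4 L libraries (10.1 to 20.5 TPM) than in the 5 ET libraries (2.12 to 4.64 TPM).

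IRS2 was lowest in lymph and separated the types in loin. Its means were 19.9 ± 7.03 TPM in brain, 17.5 ± 13.4 in backfat, 10.2 ± 5.32 in tenderloin, 8.52 ± 6.62 in loin and 1.82 ± 1.05 in lymph. Lymph lay 3.14-fold below loin (adjusted p = 1.30e-06) and 7.56-fold below brain (adjusted p = 5.50e-12). Loin and tenderloin differed by a log2 of -0.29 (-0.84 to 0.26, adjusted p = 0.515), and brain and backfat by 0.43 (-0.15 to 1.01, adjusted p = 0.170). The differences of brain from the muscles reversed when libraries were scaled to their median gene (-0.05 against loin and -0.41 against tenderloin), so the order of the 4 upper tissues is unsettled.

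In loin the ET libraries held 3.96, 4.64, 3.41, 3.96 and 2.12 TPM of IRS2, and the L libraries 10.1, 17.3, 10.8 and 20.5 TPM. Every L library was more than 2-fold above every ET library. Separation of ET below L was seen for 21.6% of loin genes. The log2 difference was -1.73 (SE 0.24, -2.26 to -1.21, adjusted p = 0.00163 with limma), and it stayed called without each animal in turn (-1.88 to -1.56). IRS2 made up 5.09% to 12.0% of the summed IRS1 and IRS2 TPM in ET loin and 13.6% to 75.6% in L loin.

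Elsewhere IRS2 was not called between types. In brain the ET libraries held 18.6, 15.8, 12.6 and 10.96 TPM and the L libraries 20.2, 32.0, 23.1 and 26.1 TPM. These groups did not overlap, as for 6.59% of brain genes, but the log2 difference of -0.77 (-1.26 to -0.28) had an adjusted p of 0.585. In tenderloin the ET libraries held 21.6, 8.64, 6.77, 5.90 and 2.86 TPM and the L libraries 12.3, 11.4, 13.8, 6.39 and 12.4 TPM (log2 -0.48, -1.32 to 0.35, adjusted p = 0.514). The single high ET library there was S0235. In backfat, 6.56 to 48.5 TPM in ET and 4.50 to 21.1 in L overlapped widely (adjusted p = 0.421).

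The tissue order of PIK3R1 depended on the processing. Its means were 34.6 ± 21.6 TPM in loin, 29.2 ± 19.4 in backfat, 23.6 ± 6.25 in lymph, 21.6 ± 10.7 in brain and 19.5 ± 5.98 in tenderloin. Brain against loin was called (log2 -0.61, adjusted p = 0.0421), but it became 0.87 when the 1 most abundant transcript of the gene was used. In the sum as deposited no other pair passed, and loin against tenderloin was 0.70 (0.16 to 1.24, adjusted p = 0.0523). After scaling to the median gene more pairs of PIK3R1 were called, among them backfat against loin (-0.99, adjusted p = 0.000715), lymph against loin (-1.28, adjusted p = 2.39e-05), brain against backfat (-0.999, adjusted p = 0.001) and brain against tenderloin (-1.33, adjusted p = 1.46e-05). With 1 transcript, backfat exceeded tenderloin (1.42, adjusted p = 0.000441) and loin (1.26, adjusted p = 0.00214). Between types PIK3R1 passed in no tissue, with a log2 of 0.40 in backfat (-0.66 to 1.46, adjusted p = 0.638) and -0.51 in loin (-1.37 to 0.34, adjusted p = 0.335). The loin library of S0385 was again the highest L library, at 85.8 TPM against 16.7 to 46.3 in the other loin libraries.

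AKT2 was highest in ET backfat. Those 5 libraries held 415, 377.4, 158, 185 and 435 TPM (314 ± 132), and the L backfat libraries 68.1, 88.7, 48.2 and 36.5 TPM (60.4 ± 23.0, n = 4). The types did not overlap, and S0276 and S0309 were the lower ET libraries. The log2 difference was 2.32 (SE 0.37, 1.49 to 3.14, adjusted p = 0.00692 with limma), and it was called without each animal in turn (2.10 to 2.53). The backfat library of S0355 that was left out held 99.1 TPM.

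In loin AKT2 was 78.3 ± 19.5 TPM in ET (74.8, 81.8, 109, 70.6 and 55.7) and 114 ± 6.67 in L (105, 117, 114 and 121). The ET library of S0276 reached into the L range. The log2 difference of -0.57 (SE 0.18, -0.96 to -0.18) was called (adjusted p = 0.0317), but only in 3 of 9 fits that left out 1 animal, and not after scaling to the median gene (-0.35, adjusted p = 0.182). In tenderloin ET held 29.1 to 58.4 TPM and L 56.7 to 69.1 TPM (log2 -0.46, -0.89 to -0.03, adjusted p = 0.223).

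Among tissues AKT2 was 201 ± 164 TPM in backfat, 94.4 ± 23.8 in loin, 54.6 ± 12.6 in tenderloin, 46.7 ± 11.8 in brain and 39.3 ± 12.0 in lymph. Averaged over the types, loin exceeded tenderloin by a log2 of 0.81 (0.43 to 1.18, adjusted p = 0.00108), and backfat exceeded tenderloin by 1.26 (adjusted p = 8.36e-08). The place of backfat rests on ET, with means of 314 TPM in backfat, 78.3 in loin and 46.8 in tenderloin. In L the means were 60.4 TPM in backfat, 114 in loin and 62.5 in tenderloin. Brain and lymph did not differ beyond their spread (log2 0.27, -0.12 to 0.67, adjusted p = 0.202). Backfat against loin, 0.46, turned to -0.23 after scaling to the median gene.

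TBC1D4 was lowest in backfat, where it averaged 7.005 ± 5.42 TPM. Loin held 29.1 ± 5.21, tenderloin 27.3 ± 12.7, lymph 24.2 ± 8.81 and brain 12.0 ± 3.95 TPM. Backfat lay 4.61-fold below loin (adjusted p = 8.58e-11) and 3.74-fold below lymph (adjusted p = 3.97e-09). Loin, tenderloin and lymph did not differ beyond their spread, in the sum as deposited. After scaling to the median gene, TBC1D4 was lower in lymph than in loin (-1.18, adjusted p = 6.60e-06) and tenderloin (-1.03, adjusted p = 3.94e-05). With matches at an E value of at most 1e-50, which drop the partial transcripts, these were -1.08 (adjusted p = 0.00121) and -0.69 (adjusted p = 0.0287). Brain exceeded backfat by a log2 of 0.95 (adjusted p = 0.000676), and by 0.27 after scaling (adjusted p = 0.292). In backfat the ET libraries held 4.79, 13.1, 4.18, 18.4 and 8.33 TPM and the L libraries 2.29, 3.44, 2.78 and 5.79 TPM. These overlapped, and the log2 difference of 1.11 (0.20 to 2.01) did not pass (adjusted p = 0.116).

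**Figure D3:**
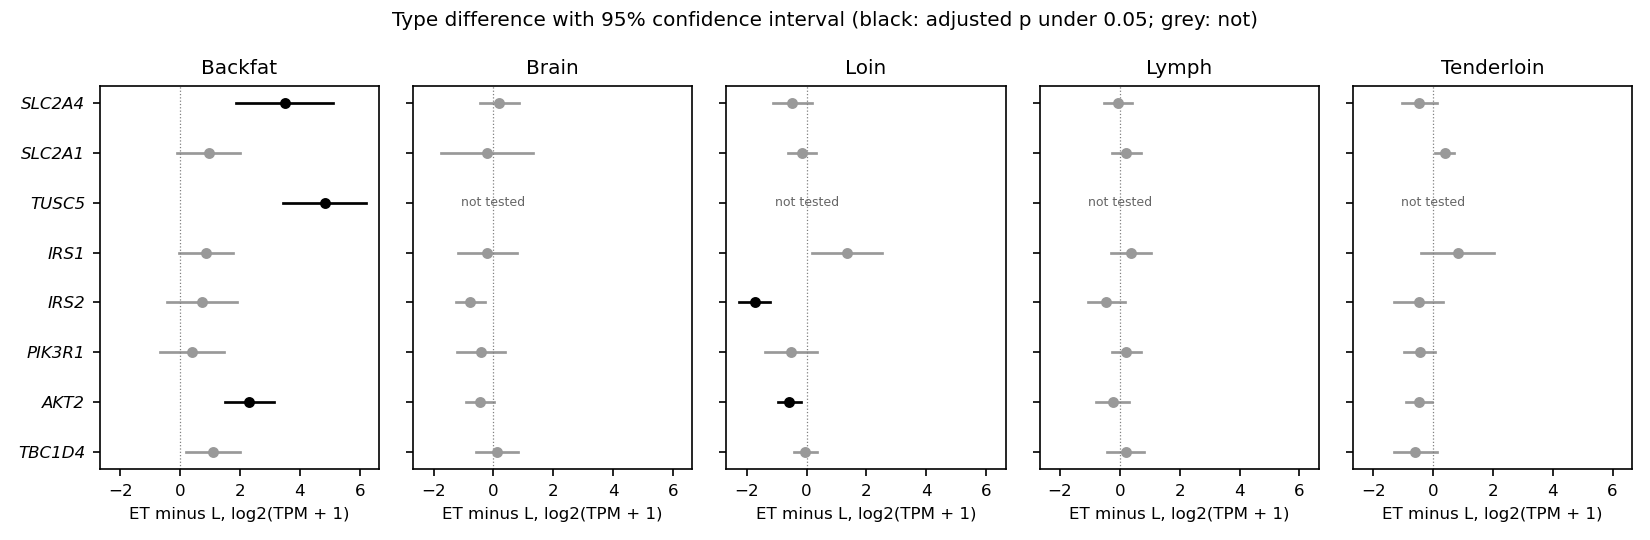
ET minus L difference of each member in each tissue (log2 scale, points with 95% intervals). TUSC5, SLC2A4 and AKT2 in backfat lie farthest above 0, and IRS2 in loin farthest below among the called differences.

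The members' ET minus L differences were tested against each other between tissues. The difference in backfat exceeded that in tenderloin by a log2 of 3.94 for SLC2A4 (SE 0.63, adjusted p = 2.61e-05) and by 2.77 for AKT2 (SE 0.37, adjusted p = 1.30e-06). TBC1D4 was called too (1.70, SE 0.47, adjusted p = 0.0121), although not without S0309, S0349 or S0384 (adjusted p 0.0528 to 0.0682). The TBC1D4 call was also lost with the left-out libraries included (1.15, adjusted p = 0.559) and with 1 transcript per gene (1.37, adjusted p = 0.0645). SLC2A4, AKT2 and TBC1D4 are 3 of the 7 members other than TUSC5, all higher, beside 10.4% of genes called higher. TUSC5 is left aside because its level in muscle, near or below the pseudocount, leaves no room for a type difference there. Backfat minus loin was called higher for SLC2A4 (3.96, adjusted p = 2.20e-05), AKT2 (2.89, adjusted p = 8.11e-07) and IRS2 (2.45, adjusted p = 0.00128), beside 24.3% of genes. For IRS2 the ET minus L difference was 0.72 in backfat, where it was not called, and -1.73 in loin. For AKT2 it was 2.32 in backfat and -0.57 in loin. With the left-out libraries included, the SLC2A4 values were 2.87 (adjusted p = 0.115) and 2.17 (adjusted p = 0.114). Loin and tenderloin did not differ in any of these 7 members beyond the threshold, beside 0.721% of genes called. For IRS2 that contrast was -1.25 (-2.35 to -0.14, adjusted p = 0.298). The comparisons share their backfat libraries.

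Many markers of cell types also differed between the types in backfat. Of 8 fat cell markers 7 were higher in ET, among them the lipase LIPE (log2 4.54) and the lipid droplet protein PLIN1 (4.20), while FABP4 was not called (1.83, adjusted p = 0.186). Their summed level was 8594 to 19373 TPM in ET and 518 to 7587 in L, and the hormone LEP stood at 0 to 0.028 TPM in L. By library the L sums were 7587 (S0349), 518 (S0377), 7280 (S0384) and 1756 TPM (S0385), while TUSC5 was 99.1, 6.94, 24.0 and 10.8. The lowest ET sum was 8594 TPM, in S0276, where TUSC5 was 356, SLC2A4 11.4 and AKT2 158 TPM. In S0349 the same genes were 99.1, 9.33 and 68.1 TPM, and in S0384 24.0, 0.972 and 48.2 TPM. In S0377, with the lowest marker sum, they were 6.94, 0.633 and 88.7 TPM, and this AKT2 value was the highest in L. In S0385 they were 10.8, 5.6 and 36.5 TPM. Fibroblast markers were higher in ET in 4 of 5 (7925 to 29727 TPM against 1024 to 3827), red cell markers in 2 of 3, macrophage markers in 2 of 5, and endothelial (0 of 5) and muscle markers (0 of 8) in none. Of 3 T and B cell markers tested CD3E and CD2 were higher and CD79A was lower, and of 5 slow muscle markers tested 1 was lower. Their part in the backfat results was not tested. In bulk tissue, fewer cells of a type and less RNA per cell cannot be told apart.

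**Figure D4:**
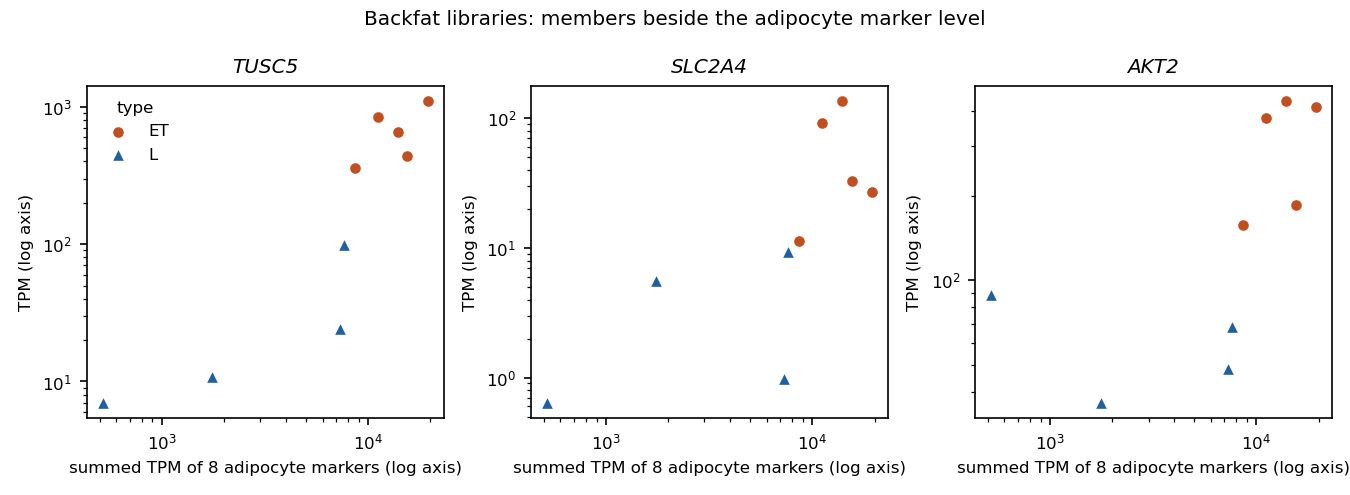
Levels of TUSC5, SLC2A4 and AKT2 (TPM, log scale) against the summed TPM of 8 fat cell markers in the 9 backfat libraries, ET and L marked. The 5 ET libraries lie at 8594 to 19373 TPM of the markers and the 4 L libraries at 518 to 7587 TPM.

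In loin other markers moved. All 5 fibroblast markers were higher in ET (159 to 920 TPM summed, against 122 to 228 in L), as were both red cell markers tested and 2 of 5 macrophage markers. Of 8 muscle markers ACTA1 and TNNC2 were higher and PYGM was lower, and their sum was 103509 to 140826 TPM in ET and 68296 to 108957 in L. Of 6 slow muscle markers 1, MYL3, was higher. Of 4 fat cell markers tested 1 was higher and 1 lower, at sums of 36.1 to 78.8 TPM in ET and 55.7 to 119 in L. Their part in the loin results was not tested. In tenderloin, with no member called, 4 of 5 fibroblast markers were higher in ET.

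The wider pathway was described with 60 further genes of insulin signalling, GLUT4 traffic and hexose uptake, of which 59 were in the table. In backfat 5 of 55 tested were higher in ET and 0 lower, beside 7.53% and 1.04% of all backfat genes, with a median log2 of 0.33 beside 0.29 over all genes. The share called higher and the median lie near the background. Hexokinase 2 (HK2), which phosphorylates glucose after uptake, was 9.46 to 55.7 TPM in ET and 0.122 to 0.883 in L (log2 3.76, adjusted p = 0.00324). Also higher were RAB10, a Rab protein of GLUT4 vesicles (log2 1.27, adjusted p = 0.0199), the fructose transporter SLC2A5 (3.0, adjusted p = 0.0326) and SLC2A10 (1.42, adjusted p = 0.0381). HK2 was called in every fit tried. SLC2A5 and SLC2A10 were each lost in 7 of 9 fits without 1 animal, and RAB10 in 3 of 9. With all libraries kept 2 of the 5 were called.

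In loin 17 of 51 pathway genes were lower in ET and 2 higher, beside 25.2% of all loin genes lower and 6.17% higher, with a median log2 of -0.36 beside -0.23 over all genes. The insulin receptor INSR was 3.01 to 5.69 TPM in ET and 7.23 to 21.0 in L (log2 -1.45, adjusted p = 0.00403). The kinases MTOR (-1.31, adjusted p = 0.00437) and GSK3A (-0.89, adjusted p = 0.00357) act downstream of AKT. ASPSCR1 (TUG), which tethers GLUT4 vesicles inside the cell, was -0.88 (adjusted p = 0.00263), and the vesicle SNARE VAMP2 -0.98 (adjusted p = 0.00692). The intracellular hexose transporter SLC2A8 was -1.14 (adjusted p = 0.00952). Among the higher genes was the transporter SLC2A12 (0.68, adjusted p = 0.0126), named after its values were seen. The number lower was 12 after scaling to the median gene, 6 with all libraries kept, and 8 and 9 without S0377 and S0385.

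No pathway gene was called in the other tissues. In tenderloin, 0 of 53 passed, and among those of smallest p were MEF2A, a transcription factor that acts on SLC2A4 (log2 0.59, adjusted p = 0.0736), and the ubiquitin ligase CBL (0.58, adjusted p = 0.0808). In brain, 0 of 57 passed (INPPL1 -0.49, MYO1C -0.56 and MTOR -0.53, each with an adjusted p of 0.585). In lymph, 0 of 54 passed (ASPSCR1 -0.48, INPPL1 -0.58 and SLC2A8 -0.67, each with an adjusted p of 0.882).

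Scaling each library to its median gene moved the level of all genes. It took the median log2 over all genes from 0.29 to 0.01 in backfat and from -0.23 to -0.03 in loin. The share of higher calls fell from 87.9% to 65.8% in backfat and from 85.9% to 69.5% in tenderloin, and rose from 19.7% to 43.5% in loin. TUSC5, SLC2A4 and AKT2 in backfat and IRS2 in loin kept their calls under scaling, and AKT2 in loin did not. In the contrasts of type differences the share went from 82.1% to 56.5% (backfat against tenderloin), from 89.6% to 50.4% (backfat against loin) and from 11.3% to 56.0% (loin against tenderloin). In 8 of 10 tissue pairs it moved by over 10 points, for example from 85.8% to 52.6% in brain against loin.

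Genes with the most similar profile were taken by Pearson r of log2(TPM + 1) over the 45 libraries, among 10683 genes with a mean of at least 5 TPM. For SLC2A4 they were those of the Swiss-Prot entries TM182 (r = 0.97), S22AG (0.96), CAH3, SGCD and ASB5 (each 0.95). For TUSC5 they were PLIN1 and SGK2 (each 0.98), ADIG, LEG12 and CIDEC (0.98, 0.98 and 0.97). For SLC2A1 they were PGRC1, ABD12 and SI1L1 (each 0.95), PTGDS and PACN2 (each 0.94). Among the members themselves, AKT2 and TUSC5 had an r of 0.73 and TBC1D4 and TUSC5 one of -0.58. These values describe libraries that share tissues and animals. TUSC5 is near or below 1 TPM outside backfat, so its r values mainly set backfat against the other tissues.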

How the data were processed

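Stranded mRNA libraries had been made from total RNA (labels' protocols). The authors deposited TPM for 57085 de novo assembled transcripts in 50 libraries, and each library sums to 1000000 TPM, so the depth and its counting error are unknown. Per the submitters' processing notes Trimmomatic 0.36 and Salmon 1.10.0 were used, and the build Sscrofa11.1 is named; their roles are not given in the sources used here. TPM were summed over the 32155 transcripts whose best Swiss-Prot match, as the deposited annotation gives it, had an E value of at most 1e-10. Transcripts with no match (20601), a weaker match (1864), a repeat or retroviral match (2440) or a match outside animals (25) were left out. SLC2A4 is entered there as GLUT4 and not as GTR4, and was taken under that name.

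Types were compared within each tissue, and the 10 tissue pairs and 3 contrasts of type differences in 1 fit of 45 libraries and 10 groups, on the log2(TPM + 1) scale with limma 3.58.1 (R 4.3.3). Genes with a mean of at least 1 TPM were tested (two-sided, trended variance, Benjamini-Hochberg over all genes tested, threshold 0.05). The method was tested on simulated data. Replicates are animals, 4 or 5 per group. Animals tie the libraries of different tissues by their labels: deviations from the group means correlated with a median of 0.15 within animals (84 pairs, -0.12 to 0.61) and -0.05 between them (320 pairs). For loin and tenderloin of the same animal the median was 0.45 (9 pairs, 0.35 to 0.61). A fit with the animal as a replicate block was an alternative. The others were the pseudocount 0.1, no filter, median-ratio scaling, 1 transcript per gene, an E value of at most 1e-50, all libraries kept, and each animal left out. Besides the members, the text names the 6 called pathway genes of smallest p per tissue, or the 3 of smallest p where fewer than 3 were called, and the 5 genes most like SLC2A4, TUSC5 and SLC2A1. Some pathway genes that this rule names are counted but not reported here by name. Members and lists were chosen with earlier results of these data known. Tables were handled in Python 3.11.15 with pandas 2.3.3 and numpy 2.4.6. Sequences were not used here.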

Additional observations from a re-analysis of the deposited data

Results flagged for a closer look

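In 80 groups of 4 or 5 samples, 1 sample stood far from the others in 3, where chance flags about 1 group in 20. These were SLC2A4 in the loin of S0385 (L), at 460.7 TPM beside 180 to 189 in the other L libraries, IRS1 in the loin of S0384 (L), at 68.9 TPM beside 5.56 to 15.7, and IRS1 in the tenderloin of S0276 (ET), at 39.4 TPM beside 9.51 to 14.0.

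The ET minus L difference was tested between tissues, and 8 member contrasts passed. Backfat minus tenderloin gave a log2 of 2.77 for AKT2, 3.94 for SLC2A4, 4.40 for TUSC5 and 1.70 for TBC1D4. Backfat minus loin gave 2.89 for AKT2, 3.96 for SLC2A4, 2.45 for IRS2 and 4.52 for TUSC5. The TUSC5 values restate its difference in backfat, since its level in muscle is near or below the pseudocount. The adjusted p-values of the others stand with these contrasts above.

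In a library left out of the main comparisons, the loin library of S0355 (L), TUSC5 was 221 TPM, against at most 0.681 TPM in the 9 loin libraries kept. That library held 1139 TPM of ADIPOQ and 0.638 TPM of CKM, so its TUSC5 value does not stand for loin muscle.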

How the results depend on the processing

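Most member results kept their call or their lack of one, and called results kept their direction. For ET against L this held for 313 of 321 values with 1 animal left out and 200 of 203 under other settings. The counts were 782 of 800 and 503 of 550 for tissue pairs, and 236 of 240 and 160 of 165 for type differences. They include values called in neither fit whose sign changed. Those were 10 and 11 for ET against L, 15 and 15 for tissue pairs, and 14 and 15 for type differences. The replicate block changed no member's call, and its counts were 3578 genes for loin against tenderloin (3124 without it), 140 for the type difference of loin and tenderloin (97) and 2289 for that of backfat and tenderloin (1695).

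Tissue differences changed sign, with a call in at least 1 of the compared fits, in 13 cases. With scaling to the median gene, AKT2 was -0.23 in backfat against loin, PIK3R1 -0.62 in lymph against tenderloin and -1.33 in brain against tenderloin, IRS1 -1.27 in brain against loin and -0.14 in brain against tenderloin, and IRS2 -0.0489 in brain against loin and -0.41 in brain against tenderloin. With 1 transcript per gene, PIK3R1 was 1.26 in backfat against loin and 0.87 in brain against loin, and IRS1 -1.68 in brain against loin and -0.53 in brain against tenderloin; an E value of at most 1e-50 gave the same -1.68 and -0.53 for IRS1, since both keep only the full-length transcript. TUSC5 has no value at 1e-50. The other causes were not tested.

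Counts of called genes moved as follows. With all libraries kept, backfat gave 573, loin 721, loin against tenderloin 1012, and the type differences of backfat and tenderloin 372 and of loin and tenderloin 0. The last was 61 with the pseudocount 0.1, 50 with scaling and 56 with 1 transcript per gene. Scaling gave 105 in tenderloin and 2180 for the type difference of backfat and loin. With 1 transcript per gene, backfat gave 658, brain 1 and tenderloin 48. An E value of at most 1e-50 gave 117 in tenderloin, and no filter 2 in lymph.

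Without 1 animal, backfat gave 316 to 1374 genes (main 1038), loin 1913 to 3339 (3317), tenderloin 5 to 374 (177), lymph 0 to 1, and the type differences of backfat and tenderloin 1034 to 1929 and of loin and tenderloin 14 to 87. Backfat fell by over 1.5 times without S0235 (480), S0326 (381), S0377 (546), S0384 (316) or S0385 (666), and loin without S0326 (2106) or S0377 (1913). Tenderloin fell without S0242 (85), S0276 (80), S0309 (100), S0326 (22), S0355 (73), S0377 (5) or S0384 (114), and rose without S0385 (374).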
